A study of Homo sapiens with 4 samples.

Results

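E2F transcription factors, the E-type cyclins, their kinase CDK2 and the phosphatase CDC25A drive the entry of cells into S phase, and 10 of these genes were described in arrays of cells labelled PC3, out of 18417 genes measured. The members are E2F1, E2F2, E2F3, E2F5, E2F7, E2F8, CCNE1, CCNE2, CDK2 and CDC25A. They were chosen by their symbols with the difference between the groups already known, so their own values are a description and carry no test. Each was represented by 1 probe set that the platform annotation assigns to that symbol alone. PC3 is an established prostate cancer line that came from a metastasis in bone, and its total RNA was measured on Affymetrix HuGene-1.0-st-v1 arrays. The control cells, labelled PC3-SCR and described as engineered with empty pBABE vector, gave 2 arrays, and cells made to over-express PDEF, labelled PC3-PDEF, gave 2 arrays. The paper names these groups VC-PC3 and PDEF-PC3 and describes the cells as stably transfected. No source used here says whether a group was 1 clone, or whether its arrays came from separate cultures, so the spread behind each p-value is that of the arrays alone and may be technical. Values are log2 signals, in which 1 unit is a 2-fold difference, and calls were made in limma at an adjusted p under 0.05 over all genes.

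In a resting cell the RB family proteins (RB1, RBL1 and RBL2) hold E2F factors in check. Cyclin D with CDK4 or CDK6, and then cyclin E with CDK2, phosphorylate the RB family, the activating factors E2F1, E2F2 and E2F3 are released, and genes of DNA replication are transcribed. CDC25A removes inhibitory phosphates from CDK2. CCNE1, CCNE2, CDC25A and several E2F genes are themselves known E2F targets, which closes a positive loop, while E2F7 and E2F8 act later in S phase to repress the same targets.

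Before these genes are described, the arrays of the groups need to be set against the cell line they are labelled with. The PDEF gene, SPDEF, gave 5.99 and 6.06 in PC3-SCR against 6.85 and 6.73 in PC3-PDEF on the log2 scale, and it rose by 0.77 (adjusted p = 0.000563, limma). Measured here were 5 genes that PC3 cells are known to have lost by deletion. As a gauge of background, the highest signal among the olfactory receptor genes was taken. The PC3-SCR signals of SPDEF lay just above this gauge (5.94 and 6.01), so the size of its rise is not exact. None of the 5 lost genes exceeded the gauge in a PC3-SCR array, and 4 did so in both PC3-PDEF arrays. Their summed log2 signals were 22.76 and 23.52 in PC3-SCR and 37.04 and 36.92 in PC3-PDEF. CTNNA1 (alpha-catenin) had signals of 4.77 and 4.07 against 9.76 and 9.86, and STAT3 of 4.51 and 4.70 against 9.06 and 9.05. STAT5B, with 4.34 and 5.39 against 7.81 and 7.67, and CAVIN1, with 4.83 and 5.03 against 6.01 and 5.91, were higher too, while STAT5A lay between 4.31 and 4.43 on all arrays. The gauge was 5.65 and 5.75 in the PC3-PDEF arrays, so CAVIN1 lay near background there and is set aside. At CTNNA1, STAT3 and STAT5B the PC3-PDEF arrays thus go against the label PC3. The cells labelled PC3-PDEF may therefore not be PC3, and whether any fold change given here compares one cell line with and without PDEF cannot be told from these arrays. Of 8 measured kidney lineage factors, 3 rose (37.5%) and 2 fell (25.0%), where 26.7% of all genes were called higher and 24.0% lower. Their summed log2 signals were 47.25 and 47.00 in PC3-SCR and 50.11 and 49.70 in PC3-PDEF. Only 3 of the 8 exceeded the gauge on all arrays, and OSR1, called lower, exceeded it on none. These counts and sums thus rest partly on background signals. Of 5 measured epithelial and prostate markers, KRT8 and EPCAM fell (40%) and none rose, with sums of 37.23 and 37.50 against 33.78 and 34.99. EPCAM had signals of 5.65 and 6.53 in PC3-PDEF, the first not above the gauge, so the size of its fall is not exact. CDH1 and KLK3 did not exceed the gauge on any array. The part of these differences in the results for the E2F and cyclin E genes was not tested, and PDEF, any other difference between the cells of the groups and the batch of a group cannot be told apart.

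Promoter sequence was searched for the E2F recognition sequence in the members themselves. RefSeq (GRCh38.p14) windows of the 250 bases before a transcription start were at hand for 6 members, CCNE1, CDC25A, E2F1, E2F2, E2F3 and E2F7, in 7 windows since E2F3 has a pair of starts, and for the others, CCNE2, CDK2, E2F5 and E2F8, none was at hand. The E2F-type motif was searched on both strands in its 4 spellings, which are TTT, then 2 letters that are each C or G, then CGC. It was found in 4 of the 6 members, CDC25A, E2F1, E2F2 and E2F3, and in 4.66% of all measured genes with a window (2.79% of all 35116 windows). In these 4 genes every match lay within the last 53 bases before the start. CCNE1 and E2F7 had no match, but a site in another spelling or outside the 250 bases would be missed. CCGGAT, a core sequence that PDEF is known to bind, shares no spelling with the E2F motif. This core was found in 1 of the 6 members, E2F1, and in 9.31% of all measured genes with a window (5.85% of all windows). The sequences below are the windows with E2F matches, printed 5′ to 3′ on the strand of the gene up to the base before the start, with matches in capitals. They are shown because they place the motif in the members whose signals are described next. For E2F1 all 250 bases are given, so that the CCGGAT core, read as ATCCGG on the printed strand, can be seen as well, and for the others the last 100 bases.
CDC25A, chr3:48188418-48188517, - strand: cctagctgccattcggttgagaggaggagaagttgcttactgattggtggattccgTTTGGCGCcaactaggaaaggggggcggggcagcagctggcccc
E2F1, chr20:33686386-33686635, - strand: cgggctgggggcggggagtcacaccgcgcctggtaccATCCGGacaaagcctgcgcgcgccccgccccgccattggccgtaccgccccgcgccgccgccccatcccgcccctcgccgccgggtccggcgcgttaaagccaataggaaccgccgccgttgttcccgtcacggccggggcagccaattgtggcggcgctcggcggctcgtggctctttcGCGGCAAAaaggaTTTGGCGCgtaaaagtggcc
E2F2, chr1:23531234-23531333, - strand: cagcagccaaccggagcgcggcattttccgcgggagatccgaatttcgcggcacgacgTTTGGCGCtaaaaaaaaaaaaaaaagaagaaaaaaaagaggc
E2F3, chr6:20401779-20401878, + strand: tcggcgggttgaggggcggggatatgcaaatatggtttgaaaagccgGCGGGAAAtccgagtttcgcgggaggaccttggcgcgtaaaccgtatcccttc
RBL1, which is no member but a known E2F target among the RB family genes below, carries 2 such matches within the last 26 bases and is shown beside them.
RBL1, chr20:37095998-37096097, - strand: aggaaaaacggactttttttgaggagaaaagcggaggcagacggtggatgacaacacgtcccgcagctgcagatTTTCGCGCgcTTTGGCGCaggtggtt

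The activating E2F genes were all higher in PC3-PDEF, but by different amounts. E2F2 had log2 signals of 5.00 and 4.81 in PC3-SCR and of 6.86 and 6.83 in PC3-PDEF, a log2 fold change of 1.94 (standard error 0.096). The PC3-SCR signals of E2F2 did not exceed the highest olfactory receptor gene (5.94 and 6.01), so the size of this difference is not exact. E2F3 had signals of 6.60 and 6.28 in PC3-SCR and of 7.21 and 7.20 in PC3-PDEF, a log2 fold change of 0.77 (standard error 0.12). The PC3-SCR arrays thus differed from each other by 0.32, which was the widest spread of any activating E2F gene, and the gap between the groups was 0.60. E2F1 had signals of 7.20 and 7.13 in PC3-SCR and of 7.38 and 7.49 in PC3-PDEF. Its log2 fold change was 0.27 (standard error 0.087), and 0.15 after quantile normalization. The gap between the E2F1 signals of the groups was 0.18, and its PC3-PDEF arrays differed from each other by 0.11. In the spellings searched, the promoter of E2F1 printed above carries 2 E2F matches and those of E2F2 and E2F3 carry 1 each. The window at the other start of E2F3 had none, and sites in other spellings were not counted. Whether the number of matches goes with the fold change was not tested.

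The repressive and atypical E2F genes went in both directions. E2F5, which acts with RBL1 and RBL2 to repress cell cycle genes in resting cells, had log2 signals of 7.69 and 7.58 in PC3-SCR and of 6.89 and 6.88 in PC3-PDEF. It was therefore lower, with a log2 fold change of -0.75 (standard error 0.085). E2F7, an atypical factor that binds DNA without a DP partner, had signals of 9.02 and 8.85 in PC3-SCR and of 8.34 and 8.40 in PC3-PDEF. E2F7 was thus lower as well, by a log2 fold change of -0.57 (standard error 0.094). E2F8, the paralog of E2F7, had signals of 5.96 and 5.86 in PC3-SCR and of 6.85 and 6.96 in PC3-PDEF. The log2 fold change of E2F8 was 1.00 (standard error 0.090), so E2F7 and E2F8, which are known to act together, lay on opposite sides of 0. The second PC3-SCR signal of E2F8 was below the highest olfactory receptor gene and the other just above it, so its difference is not exact either.

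The E-type cyclins, their kinase and its activator were higher in PC3-PDEF. CDC25A had log2 signals of 6.47 and 6.28 in PC3-SCR and of 9.46 and 9.42 in PC3-PDEF. Its log2 fold change of 3.07 (standard error 0.096) is an 8.37-fold higher level and stood at the 99.6th percentile of all genes. CCNE2, one of the cyclins that switch on CDK2, had signals of 6.12 and 6.03 in PC3-SCR and of 8.06 and 8.45 in PC3-PDEF. Its log2 fold change was 2.18 (standard error 0.14), a 4.53-fold higher level, and its PC3-PDEF arrays differed from each other by 0.39, more than those of any other member. The second PC3-SCR signal of CCNE2 was just above the highest olfactory receptor gene of that array (6.01), so the size of this difference is not exact. CCNE1, the other E-type cyclin gene, had signals of 6.86 and 6.92 in PC3-SCR and of 8.0 and 8.13 in PC3-PDEF. Its log2 fold change of 1.18 (standard error 0.089) is a 2.26-fold higher level. CDK2, the kinase itself, had signals of 8.58 and 8.61 in PC3-SCR and of 9.93 and 9.91 in PC3-PDEF. CDK2 had a log2 fold change of 1.32 (standard error 0.080), and its arrays within a group differed by at most 0.03. The order of the log2 fold changes was CDC25A, CCNE2, E2F2, CDK2, CCNE1, E2F8, E2F3, E2F1, E2F7 and E2F5. Within their standard errors CDK2 and CCNE1 (1.32 and 1.18) met, and CCNE2 and E2F2 (2.18 and 1.94), CCNE1 and E2F8 (1.18 and 1.00) and E2F7 and E2F5 (-0.57 and -0.75) nearly met, so the order within these neighbours is not firm. The places of E2F2, E2F8 and CCNE2 are not firm either, nor is that of CDC25A above E2F2 and CCNE2. The PC3-SCR signals of E2F2, and 1 of those of E2F8, were below the highest olfactory receptor gene. For CCNE2, 1 PC3-SCR signal was just above it.

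**Figure D1:**
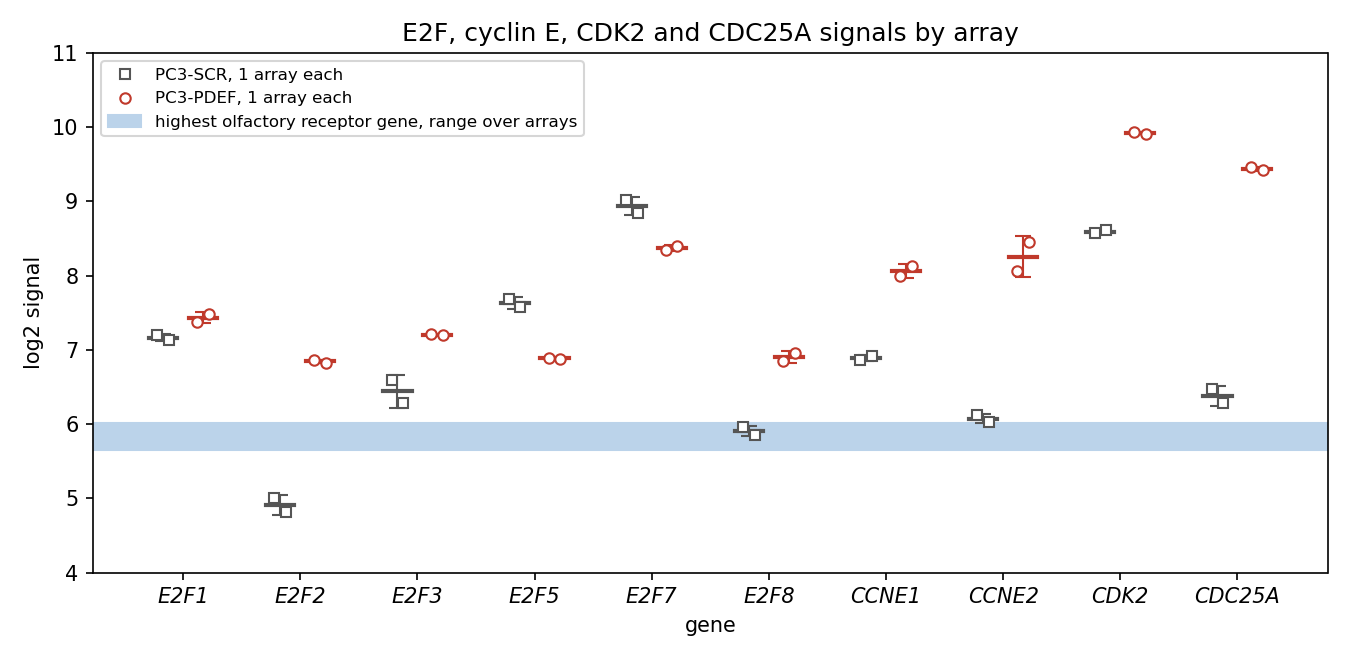
Log2 signal (vertical axis) of each gene (horizontal axis) in the PC3-SCR arrays (squares) and the PC3-PDEF arrays (circles). Short lines are means of 2 arrays and bars their SD, and the band is the range over arrays of the highest olfactory receptor gene (5.65 to 6.01). CDC25A lies at 6.47 and 6.28 in PC3-SCR and at 9.46 and 9.42 in PC3-PDEF, E2F5 and E2F7 are lower in PC3-PDEF, and E2F2 lies under the band in PC3-SCR.

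Over the 10 members, 8 passed the threshold of the fit over all genes toward higher in PC3-PDEF, where 26.7% of all genes did, and E2F5 and E2F7 passed it toward lower, where 24.0% did. At least 2-fold higher levels were found for 5 members, CDC25A, CCNE2, E2F2, CDK2 and CCNE1, against 8.68% of all genes. PC3-SCR and PC3-PDEF arrays were apart, with no overlap, in each of the 10 members and in 74.7% of all genes. Because the members were chosen with this difference known, these counts are not evidence about the family. The members had a median log2 fold change of 1.09, all genes one of -0.05. The call of E2F1 was lost after quantile normalization, after median centring, with the replicate number as a block and whenever 1 array was left out. Without PC3-PDEF replicate 1 or without PC3-PDEF replicate 2, 6 members passed toward higher, E2F1 and E2F3 no longer among them, and only E2F5 toward lower. More RNA per cell and more cells in a given phase of the cycle cannot be told apart in bulk RNA, here and in the lists that follow.

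The DP partners and the RB family were measured in the same arrays but were not members. Of 8 genes, 5 rose (62.5%), RB1 fell (12.5%), and E2F4 and TFDP3 missed the threshold. Over all genes 26.7% were called higher and 24.0% lower. The median log2 fold change was 0.43. TFDP2, a partner that E2F1 to E2F6 need to bind DNA, had log2 signals of 7.98 and 8.02 in PC3-SCR and of 9.87 and 9.90 in PC3-PDEF, and rose by 1.89 (standard error 0.081, adjusted p = 1.12e-05). TFDP1, the more widely used partner, rose by 0.70 (standard error 0.090, adjusted p = 0.000916), from 9.33 and 9.38 to 9.98 and 10.12. RBL1, the gene of p107 whose promoter is printed above, rose by 1.67 (standard error 0.094, adjusted p = 3.11e-05), from 6.73 and 6.91 to 8.48 and 8.5. RBL2, the gene of p130, had signals of 8.12 and 8.18 in PC3-SCR and of 8.44 and 8.45 in PC3-PDEF, and rose by 0.30 (adjusted p = 0.0232). Quantile normalization took its adjusted p to 0.0771, median centring to 0.0555, and leaving out 1 array to between 0.0598 and 0.102. RB1, the retinoblastoma gene, had signals of 8.10 and 8.08 in PC3-SCR and of 7.70 and 7.76 in PC3-PDEF. It fell by 0.36 (adjusted p = 0.0107), but its adjusted p was between 0.0569 and 0.0706 whenever 1 array was left out. E2F6, a repressor that acts without the RB family, rose by 0.56 (adjusted p = 0.00195), from 7.63 and 7.55 to 8.11 and 8.18. E2F4, the main repressive factor of resting cells, had signals of 8.39 and 8.18 in PC3-SCR and of 8.07 and 8.04 in PC3-PDEF, a log2 fold change of -0.23 (adjusted p = 0.10). It was called lower under quantile normalization, where its adjusted p was 0.027. TFDP3, a testis gene, lay between 3.29 and 3.58 on all arrays, below the highest olfactory receptor gene, with a log2 fold change of -0.14 (adjusted p = 0.309).

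**Figure D2:**
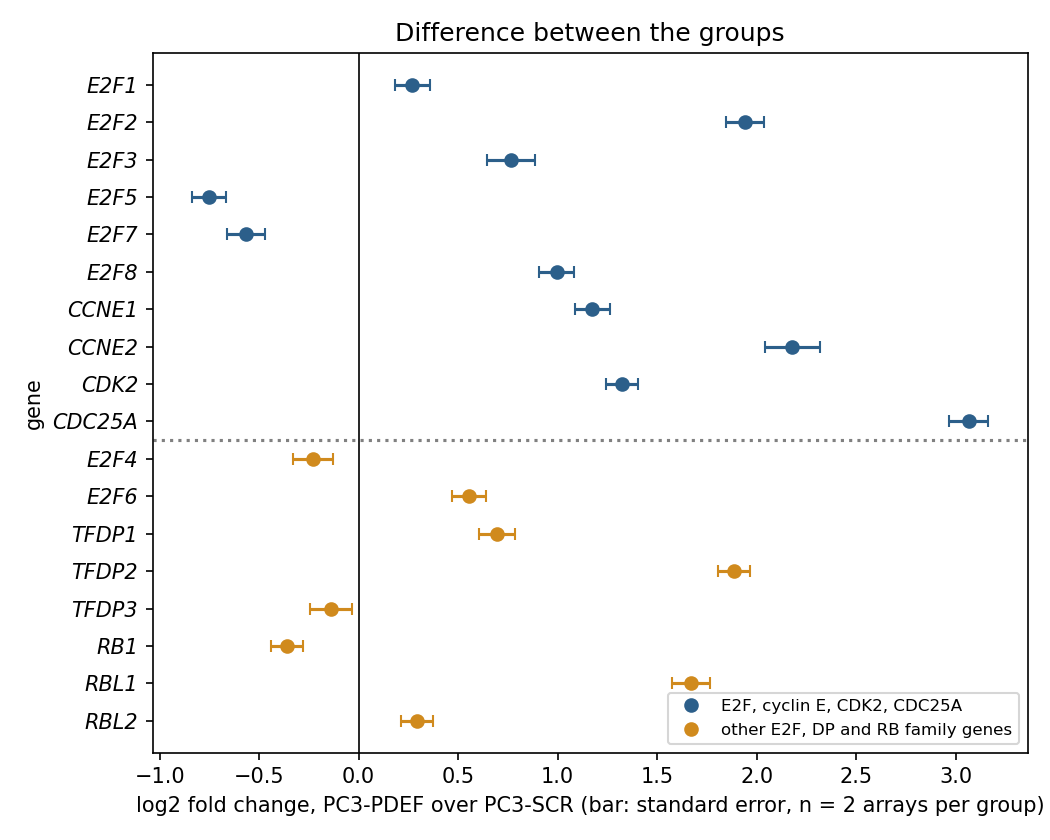
Log2 fold change of PC3-PDEF over PC3-SCR (horizontal axis) of each member (blue) and of the other E2F, DP and RB family genes (orange) on the vertical axis. Bars are standard errors from 2 arrays in each group. CDC25A lies at 3.07, TFDP2 at 1.89 and RBL1 at 1.67, while E2F5 at -0.75, E2F7 at -0.57 and RB1 at -0.36 lie left of 0.

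Genes of the DREAM and MuvB complexes, and of proteins that act with these complexes such as DYRK1A, were mostly higher. Of 8 measured, 6 rose (75.0%), DYRK1A fell (12.5%) and LIN37 missed the threshold, where 26.7% of all genes were called higher and 24.0% lower. The median log2 fold change was 0.88. MYBL2, which encodes the B-MYB factor that MuvB binds in S phase and is itself a known E2F target, had log2 signals of 8.21 and 8.19 in PC3-SCR and of 9.88 and 9.88 in PC3-PDEF, and rose by 1.68 (adjusted p = 1.65e-05). The DNA-binding subunit gene LIN54 rose by 1.27 (adjusted p = 4.78e-05). LIN9 rose by 1.11 (adjusted p = 0.000902, and 0.0579 without PC3-SCR replicate 1) and the histone-binding subunit gene RBBP4 by 0.94 (adjusted p = 0.000155). DYRK1A, whose kinase favours the assembly of DREAM, and LIN37 were named after their values were seen, and no gene of this list was called lower when any 1 array was left out.

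Upstream of RB, the cyclin D step was mixed. Of 9 genes listed 8 were measured, of which 4 were called higher, 3 lower (CCND1, CDKN2B and CDKN2D) and CDK6 neither. The median log2 fold change was 0.12. CCND2 had log2 signals of 4.51 and 4.35 in PC3-SCR, below the highest olfactory receptor gene, and of 9.78 and 9.92 in PC3-PDEF. It rose by 5.42 (adjusted p = 2.50e-06), a size that is not exact. CCND1, another D-type cyclin gene, fell by 0.86 (adjusted p = 0.000276), from 9.41 and 9.32 to 8.53 and 8.48, so the D-type cyclins did not move together. CDK4, their kinase, rose by 1.19 (adjusted p = 9.08e-05), from 9.07 and 8.94 to 10.16 and 10.22. CDKN2A, whose locus encodes an inhibitor of CDK4 and CDK6, rose by 0.57 (adjusted p = 0.00202, and 0.0535 and 0.0512 without PC3-PDEF replicate 1 or 2). Without either of these PC3-PDEF arrays 2 genes of this list were called higher and 1 lower, and without PC3-SCR replicate 2 also 1 was called lower.

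Among 24 genes that control cyclin E, CDK2 or CDC25A, all measured, 13 rose (54.2%) and 6 fell (25.0%). Over all genes 26.7% were called higher and 24.0% lower, so the share that fell was near that of all genes. CDKN1B, FBXW7, CDC25B, ATM and CCNA1 missed the threshold. The median log2 fold change was 0.31. The CDK inhibitor gene CDKN1A (p21) had log2 signals of 5.95 and 5.72 in PC3-SCR and of 8.0 and 7.90 in PC3-PDEF, and rose by 2.12 (standard error 0.11, adjusted p = 2.02e-05). Its second PC3-SCR signal was below the highest olfactory receptor gene. An inhibitor of CDK2 was thus higher in the same arrays as CDK2 and the E-type cyclins. CDKN1B (p27), the other main inhibitor of cyclin E and CDK2, had signals of 7.45 and 7.52 in PC3-SCR and of 7.38 and 7.56 in PC3-PDEF, which overlapped (log2 fold change -0.02, adjusted p = 0.912). FBXW7, whose protein marks cyclin E for destruction, had signals of 6.85 and 6.92 in PC3-SCR and of 7.07 and 7.15 in PC3-PDEF (log2 fold change 0.23, adjusted p = 0.0676, and 0.0241 among genes above the median level). SKP2, which marks p27 for destruction, rose by 0.26 (adjusted p = 0.0391, but between 0.0815 and 0.136 whenever 1 array was left out). BTRC, whose ligase removes CDC25A after DNA damage, rose by 1.18 (adjusted p = 0.000144). ATR, a kinase of the same checkpoint, rose by 1.17 (adjusted p = 0.000103), and PKMYT1, a kinase that opposes CDC25 phosphatases at CDK1, also rose by 1.17 (adjusted p = 0.000103), with a second PC3-SCR signal below the highest olfactory receptor gene. Without PC3-PDEF replicate 1 or without PC3-PDEF replicate 2, 10 genes of this list were called higher and 3 lower.

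Genes of S phase entry that activating E2F factors are known to drive were nearly all higher in PC3-PDEF. Of 40 such genes listed, members left out, 37 were measured, and 32 rose (86.5%), 1 fell (2.70%) and TK1, POLD1, LIG1 and RRM2 missed the threshold. Over all genes 26.7% were called higher and 24.0% lower. At least 2-fold higher levels were found for 27 of the 37, against 8.68% of all genes. The median log2 fold change was 1.53 where that of all genes was -0.05. This list was drawn up with earlier results of these data known, so its count is a description. MCM10, which helps to fire replication origins, had log2 signals of 5.61 and 5.57 in PC3-SCR and of 9.18 and 9.30 in PC3-PDEF, and rose by 3.65 (standard error 0.087, adjusted p = 2.85e-06). Its PC3-SCR signals were below the highest olfactory receptor gene, so this size is not exact. BRCA1, a DNA repair gene, rose by 2.52 (adjusted p = 4.93e-06), from 6.09 and 6.17 to 8.63 and 8.67. The replicative polymerase gene POLE rose by 2.39 (adjusted p = 5.71e-06), from 6.72 and 6.66 to 9.10 and 9.05. GINS2, a subunit of the replicative helicase, rose by 2.33 (adjusted p = 9.02e-06), from 6.16 and 6.14 to 8.39 and 8.56. The PC3-SCR signals of BRCA1 and GINS2 lay just above the highest olfactory receptor gene (5.94 and 6.01), so their sizes are not exact either. TYMS, the thymidylate synthase gene and the single gene of the list that fell, was named after its values were seen. It had signals of 10.34 and 10.31 in PC3-SCR and of 10.00 and 9.90 in PC3-PDEF (log2 fold change -0.38, adjusted p = 0.0106). Without PC3-PDEF replicate 2, and likewise without either PC3-SCR array, no gene of the list was called lower.

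**Figure D3:**
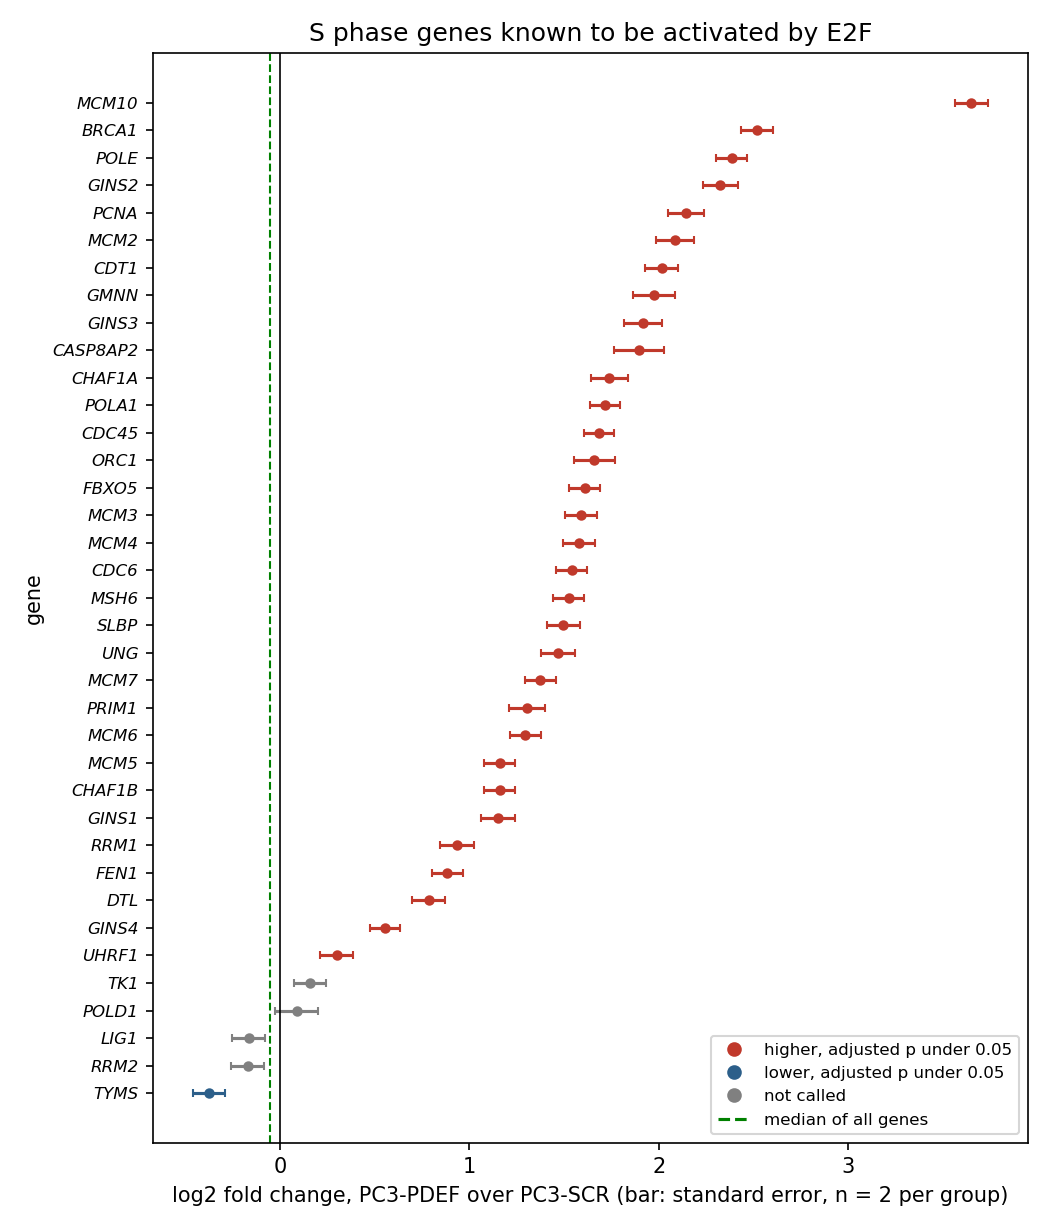
Log2 fold change of PC3-PDEF over PC3-SCR (horizontal axis) of the 37 measured S phase genes (vertical axis), with the standard error as a bar, 2 arrays per group and the median of all genes as a dashed line at -0.05. The 32 genes that rose (red) reach up to MCM10 at 3.65, 4 genes are grey and TYMS at -0.38 is blue.

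The E2F motif was also set against the differences over all genes. Among 14239 measured genes with a promoter window, 664 held the motif, and 40.7% of these were called higher and 23.0% lower, where 28.5% and 24.3% of all genes with a window were. Their median log2 fold change was 0.11, that of all genes with a window -0.04. Of the S phase genes above, 15 of 34 with a window held the motif, 44.1% against 4.66% of all measured genes with a window. That list was made of known E2F targets, so its larger share is no result of these arrays. Within the list, 86.7% of the genes with the motif were called higher, and 85.3% of all its genes with a window. For CCGGAT, 1325 genes held it, with 35.2% called higher and 28.0% lower. For CCGGAAG, the core of many other ETS factors, 2036 genes held it, with 38.8% higher and 24.6% lower. The share called higher was thus above that of all genes with a window for each of these 3 motifs, no test was made between them, and a match is a run of letters and not a bound site.

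**Figure D4:**
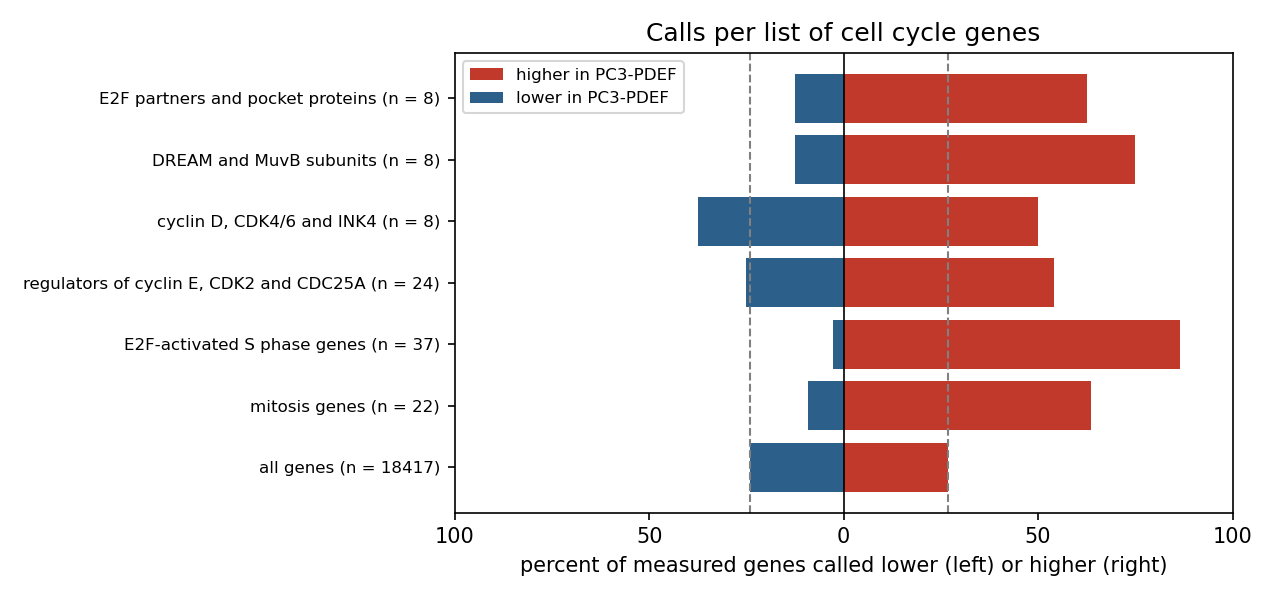
Percent of measured genes called lower (blue, to the left) or higher (red, to the right) in PC3-PDEF at an adjusted p under 0.05 from limma (horizontal axis) for each list of cell cycle genes and for all genes (vertical axis), with dashed lines at the shares of all genes, 24.0% and 26.7%. The S phase genes reach 86.5% higher, the list labelled DREAM and MuvB subunits 75.0% and the cyclin D list 50%.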

How the data were processed

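RNA of PC3-SCR and PC3-PDEF cells was measured on 4 arrays, 2 per group. The deposited values of 33297 probe sets were read as log2 signals because of their range. The submitters' processing notes name Transcriptome Analysis Console, but how the authors corrected background and normalized is not given in the sources used here, nor is a version. Array medians were 5.41 to 5.46, so a shift common to all genes would stay hidden. The platform annotation gave 1 symbol to 19460 probe sets, which were used, and several to 1754. Symbols were updated through RefSeq gene IDs, which matched for 19429. Of the probe sets of a gene the one with the highest mean was kept, giving 18417 genes, with no filter on low signals. The 341 olfactory receptor genes gauged background, with highest signals of 5.65 to 6.01. Groups were compared with limma 3.58.1 in R 4.3.3 (lmFit and eBayes, two-sided, 2 residual and 4.23 prior degrees of freedom) with Benjamini-Hochberg adjustment over all genes, and the fit was tested on simulated data. With 2 arrays a side, 0.333 is the smallest two-sided p of an exact permutation test, and the number of arrays limits the precision. The members and gene lists were chosen with earlier results of these data known. The text names all members, all genes of the DP and RB family list and of the list of genes lost in PC3, SPDEF, CDKN1A, CDKN1B, FBXW7 and SKP2, and of each other cell cycle list the 4 called genes with the largest absolute log2 fold change. Other genes were named after their values were seen. Alternatives were quantile normalization, median centring, genes above the median level alone, the mean of a gene's probe sets, an intensity trend, the replicate number as a block and leaving out each array. Genes listed but absent from the counts were not analysed here.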

Additional observations from a re-analysis of the deposited data

How the results depend on the processing

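The log2 fold changes of the 10 members kept their sign under every alternative run, with 94 of 99 values within 1 SD of the replicates. For most values this was fixed in advance. Leaving out 1 array moves a mean of 2 by less than their SD, and could turn no sign where the groups did not overlap. The block, the intensity trend, the filter on level and the mean of probe sets returned the same fold changes. Only quantile normalization and median centring could thus move a value beyond 1 SD. E2F1, at 0.15, CCNE1, at 1.08, E2F5, at -0.85, and E2F8, at 0.91, lay beyond it after quantile normalization. CDK2, at 1.26, did so after median centring. Among genes above the median level E2F2 was left out by the filter. With the replicate number as a block, 7 members were called higher and 2 lower, and over all genes 4355 and 3619, against 4918 and 4419. The difference of replicate 1 from replicate 2 in PC3-SCR correlated over genes at 0.022 with that in PC3-PDEF. The numbers were therefore not taken to pair the arrays. The genes called lower were 2 of the DP and RB family list after quantile normalization, median centring, in genes above the median level and with an intensity trend, and 2 of the S phase list after quantile normalization and with an intensity trend. The mitosis list, added after seeing the data, had 1 gene lower with the block. Leaving out 1 array at a time gave 3010 to 3635 genes higher and 2326 to 2856 lower over all genes. It gave 1 to 2 members lower, 0 genes of the DP and RB family and DREAM lists lower, 2 to 3 cyclin D genes higher and 1 to 2 lower, 3 to 4 regulators lower, 0 to 1 S phase genes lower, and 7 to 9 mitosis genes higher and 0 to 1 lower. CDKN1B ranged from -0.105 to 0.075 when 1 array was left out, and was above 0 without PC3-SCR replicate 2 (0.02) or PC3-PDEF replicate 1 (0.075). The cause of these changes was not tested, apart from the fewer arrays or genes that an alternative leaves. For the other genes rerun singly, 299 values kept their sign and their side of the threshold, the 2 of CDKN1B turned sign without a call, 21 lost and 5 gained a call. Genes named after their values were seen, and those of the mitosis, epithelial and kidney lists, were not rerun singly.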

Other observations

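Genes of mitosis, a list added after the data were seen, were more often higher than lower. Of 22 listed and measured, 14 rose (63.6%), CDC20 and PTTG1 fell (9.09%) and 6 missed the threshold. Of all genes, 26.7% were called higher and 24.0% lower. The median log2 fold change was 0.38 where that of the S phase list was 1.53 and that of all genes -0.05. Only 1 of the 22 was at least 2-fold higher, KIF11, the gene of a spindle motor, with log2 signals of 7.80 and 7.88 in PC3-SCR and of 9.13 and 9.20 in PC3-PDEF (log2 fold change 1.33, adjusted p = 4.79e-05, limma). The kinesin genes CENPE and KIF23 rose by 0.94 (adjusted p = 0.000548) and 0.77 (adjusted p = 0.00037). The mitotic kinase gene AURKB rose by 0.97 (adjusted p = 0.000249), while AURKA had signals of 9.69 and 9.73 in PC3-SCR and of 9.68 and 9.72 in PC3-PDEF (adjusted p = 0.932). CCNB1, the gene of a mitotic cyclin, rose by 0.57 (adjusted p = 0.00157). CDC20, an activator of the anaphase ubiquitin ligase, fell by 0.41 (adjusted p = 0.0116), from 9.69 and 9.51 to 9.18 and 9.20. The difference between the lists was not tested, and these genes were chosen after their values were seen. Without PC3-PDEF replicate 2 or without PC3-SCR replicate 2, 7 genes of the mitosis list were called higher, without PC3-SCR replicate 1 there were 8 and without PC3-PDEF replicate 1 there were 9.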
